A study of Mus musculus with 7 samples.

Results

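The genes described here copy DNA during S phase: 36 genes of origin licensing, the replication fork, nucleotide supply and chromatin assembly behind the fork. They were found as the gene probes of the array whose gene name is on a list of 36, and all 36 were present, among 28146 gene names on the array. Each of the 36 was also among the 17398 gene names that passed a filter on dim probes, and 32 of them stood well above background on all 7 arrays. The study sorted epithelial cells from the intestine of 2 kinds of mice. Dll1-EGFP-ires-CreERT2 mice express GFP from the Dll1 promoter, Dll1 being a Notch ligand of early secretory progenitors, and their GFP-high cells were divided by the surface protein CD24 into CD24 high, CD24 medium and CD24 low, with 2 arrays each. Lgr5-EGFP-ires-CreERT2 mice express GFP under the promoter of Lgr5, a Wnt pathway receptor, and their GFP-high cells, the intestinal stem cells by the labels, gave 1 array. No treatment or age of the mice is given in the labels. A sort by a promoter's GFP takes whatever cells hold enough GFP, which also stays in a cell for some time after the promoter falls silent. Sample RNA carried Cy3 and was hybridised beside Cy5-labelled RNA of whole small intestine, so a level below is log2 of sample over this reference, and a difference is between mean levels of groups. The design text calls the CD24 arrays biological replicates without naming animals, and p-values measure the spread between these arrays.

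DNA replication begins with licensing. In G1 the origin recognition complex, with Cdc6 and Cdt1, loads the ring of Mcm2 to Mcm7 onto DNA as an idle helicase. At S phase entry Cdc45 and the GINS complex join the ring, Mcm10 helps it to open the DNA, primase and polymerase alpha lay primers, and the sliding clamp Pcna, placed by the replication factor C loader, holds the polymerases that follow. Most of these genes are transcribed from G1 into S phase under the E2F factors. In the small intestine, stem cells and the progenitors above them divide, while Paneth, goblet and enteroendocrine cells have left the cell cycle.

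The replication genes were graded over the sorted populations. Their median level was 1.38 on the Lgr5 array, 0.17 and 0.09 on the CD24 low arrays, 0.10 and −0.22 on the CD24 medium arrays, and −0.77 and −0.86 on the CD24 high arrays. The median over all genes tested stayed between −0.01 and 0.07 on the same arrays. The Lgr5 array stood above and the CD24 high arrays stood below all others, while CD24 low and CD24 medium lay close to each other. In bulk RNA, fewer cells in S phase and less of each transcript per cell cannot be told apart.

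**Figure D1:**
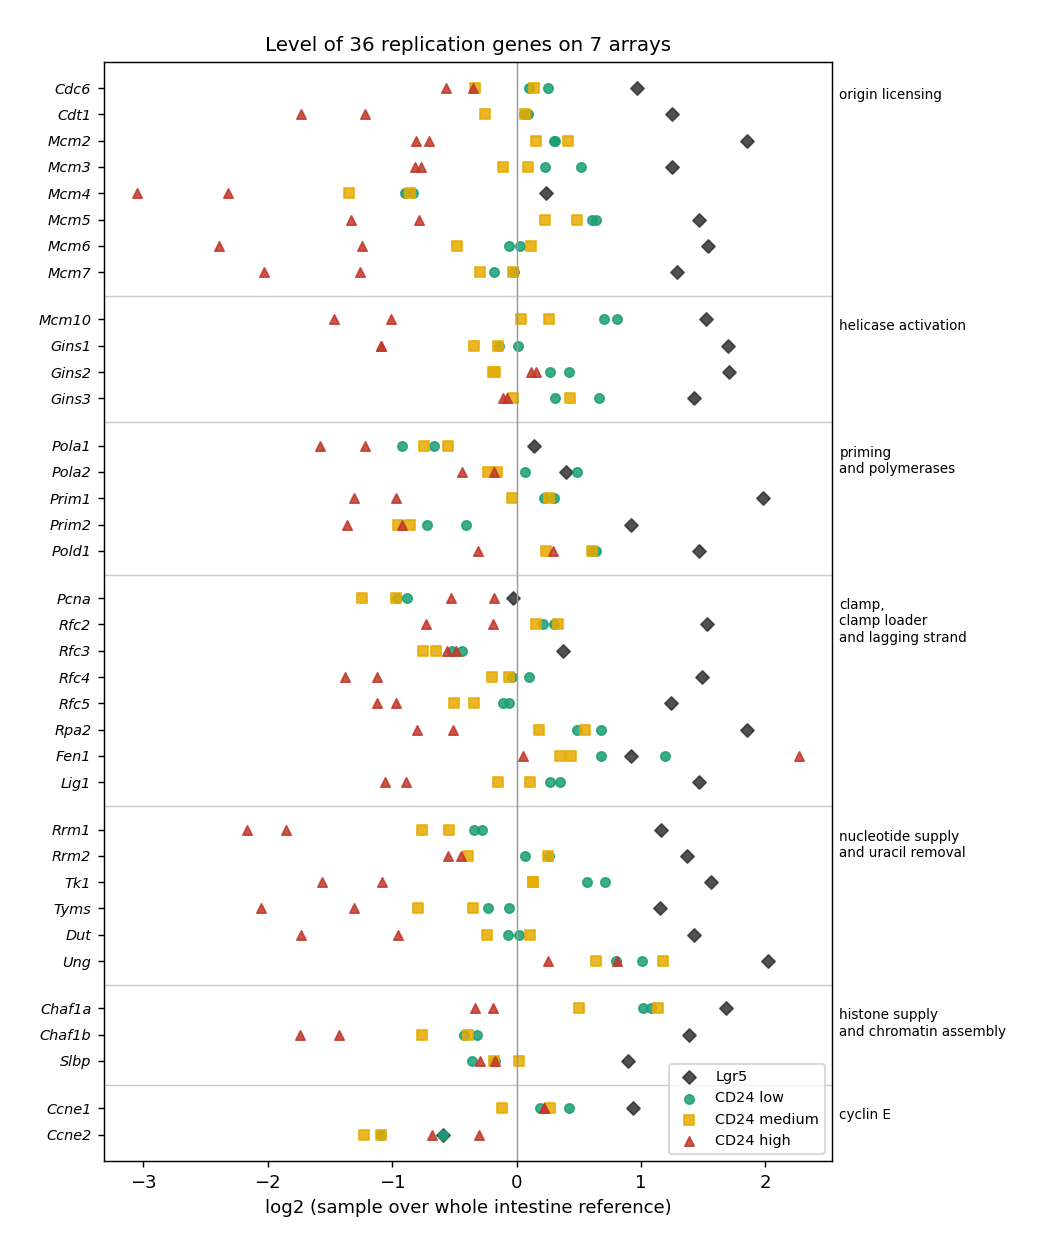
Level of each of the 36 replication genes (rows, grouped by role) as log2 of sample over the whole intestine reference (horizontal axis) on each of 7 arrays, with 1 mark per array and its shape and colour giving the group. The Lgr5 array lies above the 6 Dll1 arrays for 33 of the genes, against 25.5% of all genes. Both CD24 high arrays lie below the 4 other Dll1 arrays for 25, against 24.4% of all genes.

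Single genes followed that order closely. Group means ran from Lgr5 down through CD24 low and CD24 medium to CD24 high for 27 of the 36 genes, against 7.95% of all genes. For 10 genes the single arrays kept this order with no overlap between any neighbouring groups, against 1.82% of all genes. These 10 were Mcm3, Mcm5, Mcm10, Gins1, Rfc4, Rfc5, Lig1, Rrm1, Tk1 and Tyms, and they came from every role but priming and polymerases, chromatin assembly and cyclin E. Compared with the reference, 34 genes were above 0 on the Lgr5 array and 31 were below 0 on both CD24 high arrays. Both CD24 low arrays were above 0 for 20 genes and both CD24 medium arrays for 10. What share of all genes lay on these sides of 0 is not given here, so these counts against the reference have no background.

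CD24 medium was compared with CD24 high in a linear model of all 7 arrays (limma, adjusted p under 0.05 over all genes). Of the 36 genes, 21 were higher in CD24 medium, among a background of 7.6% of all genes called in that direction. Pcna alone was lower, where 13.4% of all genes were called. The median difference of the 36 was 0.82, or 1.76-fold, beside 0.01 for all genes. CD24 low against CD24 high gave 20 genes higher and 0 lower, with 6.87% and 11.3% of all genes called, and a median difference of 1.04 or 2.06-fold. All 20 were also among the 21 higher in CD24 medium. The 2 comparisons share the CD24 high arrays. At an unadjusted p under 0.05, 1 gene was lower in CD24 low, against 18.3% of all genes.

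The CD24 medium count depended on single arrays. Without CD24 medium replicate 1 it was 4, without CD24 high replicate 2 it was 11, and without CD24 medium replicate 2 it was 13, where the lone array left in a group takes its spread from the rest. Mcm10, Prim1, Rrm1 and Tk1 passed with every array left out in turn, 4 of 22. In CD24 low against CD24 high, 16 of 20 did so.

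Of the 8 licensing genes, 7 rose in CD24 medium and in CD24 low against CD24 high, with median differences of 1.40 and 1.55. Mcm6, a subunit of the helicase ring, stood at 1.54 on the Lgr5 array, at 0.03 and −0.06 on the CD24 low arrays, at 0.12 and −0.48 on the CD24 medium arrays and at −1.24 and −2.39 on the CD24 high arrays. It was 3.11-fold higher in CD24 medium against CD24 high (log2 1.64 ± 0.39 SE, adjusted p = 0.029), the largest such difference of the 36, although the CD24 high arrays themselves lay far apart.

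Mcm4 and Mcm7, further subunits of the ring, were 2.98-fold (adjusted p = 0.013) and 2.79-fold (adjusted p = 0.013) higher in CD24 medium. Mcm4 was at 0.24 in Lgr5, −0.83 and −0.90 in CD24 low, −0.86 and −1.35 in CD24 medium, then −2.32 and −3.05 in CD24 high. Mcm7 was at 1.29 in Lgr5, −0.18 and −0.02 in CD24 low, −0.03 and −0.29 in CD24 medium, then −1.26 and −2.03 in CD24 high. For both genes CD24 high stood apart from every other array, and CD24 low and medium overlapped or touched.

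Mcm5 kept all 4 groups apart: its level was 1.47 in Lgr5, 0.61 and 0.64 in CD24 low, 0.49 and 0.23 in CD24 medium, then −0.78 and −1.33 in CD24 high. It was 2.67-fold higher in CD24 medium (adjusted p = 0.0081) and 3.21-fold higher in CD24 low (adjusted p = 0.0042) than in CD24 high. Mcm3, with levels of 1.25, then 0.23 and 0.52, then 0.09 and −0.11, then −0.77 and −0.82 in the same order of groups, had a smaller rise of 1.73-fold in CD24 medium (adjusted p = 0.024). Mcm2, at 1.85 in Lgr5, lay between 0.16 and 0.41 on the CD24 low and medium arrays and at −0.70 and −0.81 on the CD24 high arrays, a 2.05-fold rise in CD24 medium (adjusted p = 0.0078) that did not pass with the Cy3 channel alone (adjusted p = 0.15).

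Cdt1, the loading factor that is destroyed once S phase begins, was at 1.25 in Lgr5, 0.06 and 0.09 in CD24 low, 0.07 and −0.25 in CD24 medium, then −1.22 and −1.73 in CD24 high. CD24 medium was 2.61-fold (adjusted p = 0.0084) and CD24 low 2.93-fold (adjusted p = 0.0052) above CD24 high. Cdc6, which acts with Cdt1, did not pass in either comparison. Its level was 0.97 in Lgr5, 0.25 and 0.10 in CD24 low, and 0.14 and −0.33 in CD24 medium. On both CD24 high arrays, at −0.57 and −0.35, its probe was not well above background, so these values are only bounds. Against Lgr5, CD24 high was at least 2.6-fold lower for Cdc6. That bound took, on each CD24 high array, the higher of the probe's own signal and the lowest signal well above background. The fitted limma difference was 2.7-fold (adjusted p = 0.0064).

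Letters of an E2F site stood near the start of several licensing genes. RefSeq promoters of GRCm38.p6, each running from 250 bases before to 50 after a gene's start, were given for 30 of the 36 genes as 34 windows. The words searched on both strands were TTTCCCGC, TTTCGCGC, TTTGCCGC and TTTGGCGC, which can overlap one another where an arm is shared. Of the 30 genes 11 held a word (36.7%), against 2.6% of all 27025 genes of the table and 4% of its 10197 genes that were tested on the array. Those 11 were Cdc6, Cdt1, Mcm3, Mcm5, Mcm6, Mcm7, Gins3, Pola1, Pold1, Rfc3 and Lig1. Windows of 30 bases are shown for 5 of them, read 5′ to 3′ on the gene's strand, with the word in capitals, to show the shared core and that Mcm5 and Mcm6 carry it within a longer near-palindrome.
Mcm5, chr8:75109345-75109374, plus strand: gcgccaagaacTTTCGCGCcaaaacgtcca
Mcm6, chr1:128359797-128359826, minus strand: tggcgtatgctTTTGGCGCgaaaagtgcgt
Mcm6, chr1:128359734-128359763, minus strand: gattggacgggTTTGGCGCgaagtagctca
Mcm7, chr5:138172030-138172059, minus strand: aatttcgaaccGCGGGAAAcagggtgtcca
Cdc6, chr11:98908002-98908031, plus strand: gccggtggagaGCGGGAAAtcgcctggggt
Gins3, chr8:95633507-95633536, plus strand: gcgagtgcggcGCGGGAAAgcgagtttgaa

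In the windows of Mcm7, Cdc6 and Gins3 the word lies on the opposite strand and reads GCGGGAAA. In Mcm5 the capitals start at −153 bases from the gene's start and are followed by a further word of the opposite strand that shares 4 of its bases. The match is of letters alone. The windows of the other 19 genes, Mcm2 and Mcm10 among them, hold none of these words. Mcm4, Gins1, Gins2, Prim2, Rfc2 and Ccne2 had no entry. The shorter word CCAAT was present in 16 of the 30 genes (53.3%), against 41.1% of all genes, and TTTGAA in 3 (10%), against 20.2%. For comparison, other replication genes held an E2F word in 12 of 42 (28.6%), CCAAT in 25 (59.5%) and TTTGAA in 9 (21.4%). The G2 and mitosis genes held an E2F word in 1 of 22 (4.55%), CCAAT in 17 (77.3%) and TTTGAA in 15 (68.2%).

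Among the genes that activate the helicase, Mcm10 had no overlap between the groups on single arrays. Its difference between CD24 low and CD24 medium did not pass the test. Its level was 1.52 in Lgr5, 0.70 and 0.81 in CD24 low, 0.26 and 0.04 in CD24 medium, then −1.01 and −1.47 in CD24 high. It was 2.63-fold higher in CD24 medium (adjusted p = 0.0062) and 3.98-fold higher in CD24 low (log2 1.99 ± 0.20 SE, adjusted p = 0.0015), the largest difference between CD24 low and CD24 high among the 36. Gins1, which encodes a GINS subunit, was at 1.70, then 0.01 and −0.14, then −0.15 and −0.34, then −1.09 on both CD24 high arrays, and was 1.79-fold higher in CD24 medium (adjusted p = 0.014). Gins3 did not pass, with 1.43 in Lgr5, 0.66 and 0.31 in CD24 low, 0.43 and −0.03 in CD24 medium, then −0.08 and −0.11 in CD24 high, the last not well above background.

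Primase and the polymerases were mixed. Prim1, the catalytic subunit of primase, was at 1.98 in Lgr5, 0.30 and 0.22 in CD24 low, 0.26 and −0.04 in CD24 medium, then −0.97 and −1.31 in CD24 high. It rose 2.38-fold in CD24 medium (adjusted p = 0.0074) and 2.64-fold in CD24 low (adjusted p = 0.0047). Its partner Prim2 passed in neither, with CD24 high at −1.36 and −0.92 and CD24 medium at −0.95 and −0.86. Pola1, the catalytic subunit of polymerase alpha, was at 0.14 in Lgr5, −0.66 and −0.92 in CD24 low, −0.74 and −0.55 in CD24 medium, then −1.58 and −1.22 in CD24 high. On CD24 high replicate 2 its probe was not well above background, so of that group only 1 array measured it. With that limit, it passed in CD24 medium (1.69-fold, adjusted p = 0.040) and missed the threshold in CD24 low. The log2 difference of 0.75 in CD24 medium was 3.05 with Agilent's processed signals, and the call was lost with an offset of 16 (adjusted p = 0.050). Pola2, the second subunit of polymerase alpha, and Pold1, the catalytic subunit of polymerase delta, did not pass. Their differences between CD24 medium and CD24 high were 0.12 and 0.43, and a second probe of Pold1 gave 1.09.

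At the clamp loader and lagging strand, Rfc4 showed the common pattern, with 1.49 in Lgr5, 0.10 and −0.04 in CD24 low, −0.06 and −0.20 in CD24 medium, then −1.12 and −1.38 in CD24 high. CD24 medium was 2.17-fold above CD24 high (adjusted p = 0.0070). Rfc5, a further loader subunit, Rpa2, a subunit of the protein that coats single-stranded DNA, and Lig1, the ligase that joins Okazaki fragments, rose 1.55-fold (adjusted p = 0.034), 2.03-fold (adjusted p = 0.017) and 1.93-fold (adjusted p = 0.012) in CD24 medium. Rfc2 and Rfc3 did not pass. Rfc2 differed by 0.71 and Rfc3 by −0.17.

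Nucleotide supply moved strongly. Tk1, the cytosolic thymidine kinase of S phase, was at 1.56 in Lgr5, 0.57 and 0.71 in CD24 low, 0.13 on both CD24 medium arrays, and −1.08 and −1.56 in CD24 high. It was 2.74-fold higher in CD24 medium (adjusted p = 0.0052) and 3.88-fold higher in CD24 low (adjusted p = 0.0015). Rrm1, the large subunit of ribonucleotide reductase, was at 1.16 in Lgr5, −0.28 and −0.34 in CD24 low, −0.54 and −0.76 in CD24 medium, then −1.85 and −2.17 in CD24 high, which is 2.56-fold (adjusted p = 0.0046) and 3.25-fold (adjusted p = 0.0017) higher in CD24 medium and CD24 low. Rrm2, its small subunit, did not pass: CD24 medium replicate 2, at −0.39, lay by the CD24 high arrays at −0.55 and −0.45, while replicate 1 was at 0.25.

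Tyms, thymidylate synthase, and Dut, the enzyme that removes dUTP, rose 2.16-fold (adjusted p = 0.037) and 2.43-fold (adjusted p = 0.022) in CD24 medium. Tyms was at 1.15 in Lgr5, −0.06 and −0.23 in CD24 low, −0.35 and −0.79 in CD24 medium, then −1.31 and −2.05 in CD24 high. Ung, which cuts uracil out of DNA, did not pass, and its CD24 high values of 0.81 and 0.25 overlapped the CD24 medium values of 1.18 and 0.64.

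Both measured subunits of chromatin assembly factor 1, which places histones on new DNA, rose. Chaf1a was at 1.68 in Lgr5, 1.08 and 1.02 in CD24 low, 1.14 and 0.50 in CD24 medium, then −0.19 and −0.33 in CD24 high (2.12-fold in CD24 medium, adjusted p = 0.022). Chaf1b was at 1.39 in Lgr5, −0.32 and −0.42 in CD24 low, −0.39 and −0.76 in CD24 medium, then −1.43 and −1.74 in CD24 high (2.02-fold, adjusted p = 0.016). Slbp, which binds the histone mRNA stem-loop, did not pass: its 6 Dll1 values lay between −0.36 and 0.02.

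The cyclin E genes, whose products drive entry into S phase, did not pass between CD24 levels. Ccne1 lay between −0.12 and 0.42 on the 6 Dll1 arrays and above all of them, at 0.94, in Lgr5. Ccne2 stood well above background on 3 of 7 arrays and on neither CD24 high array, so its CD24 high values give no direction.

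**Figure D2:**
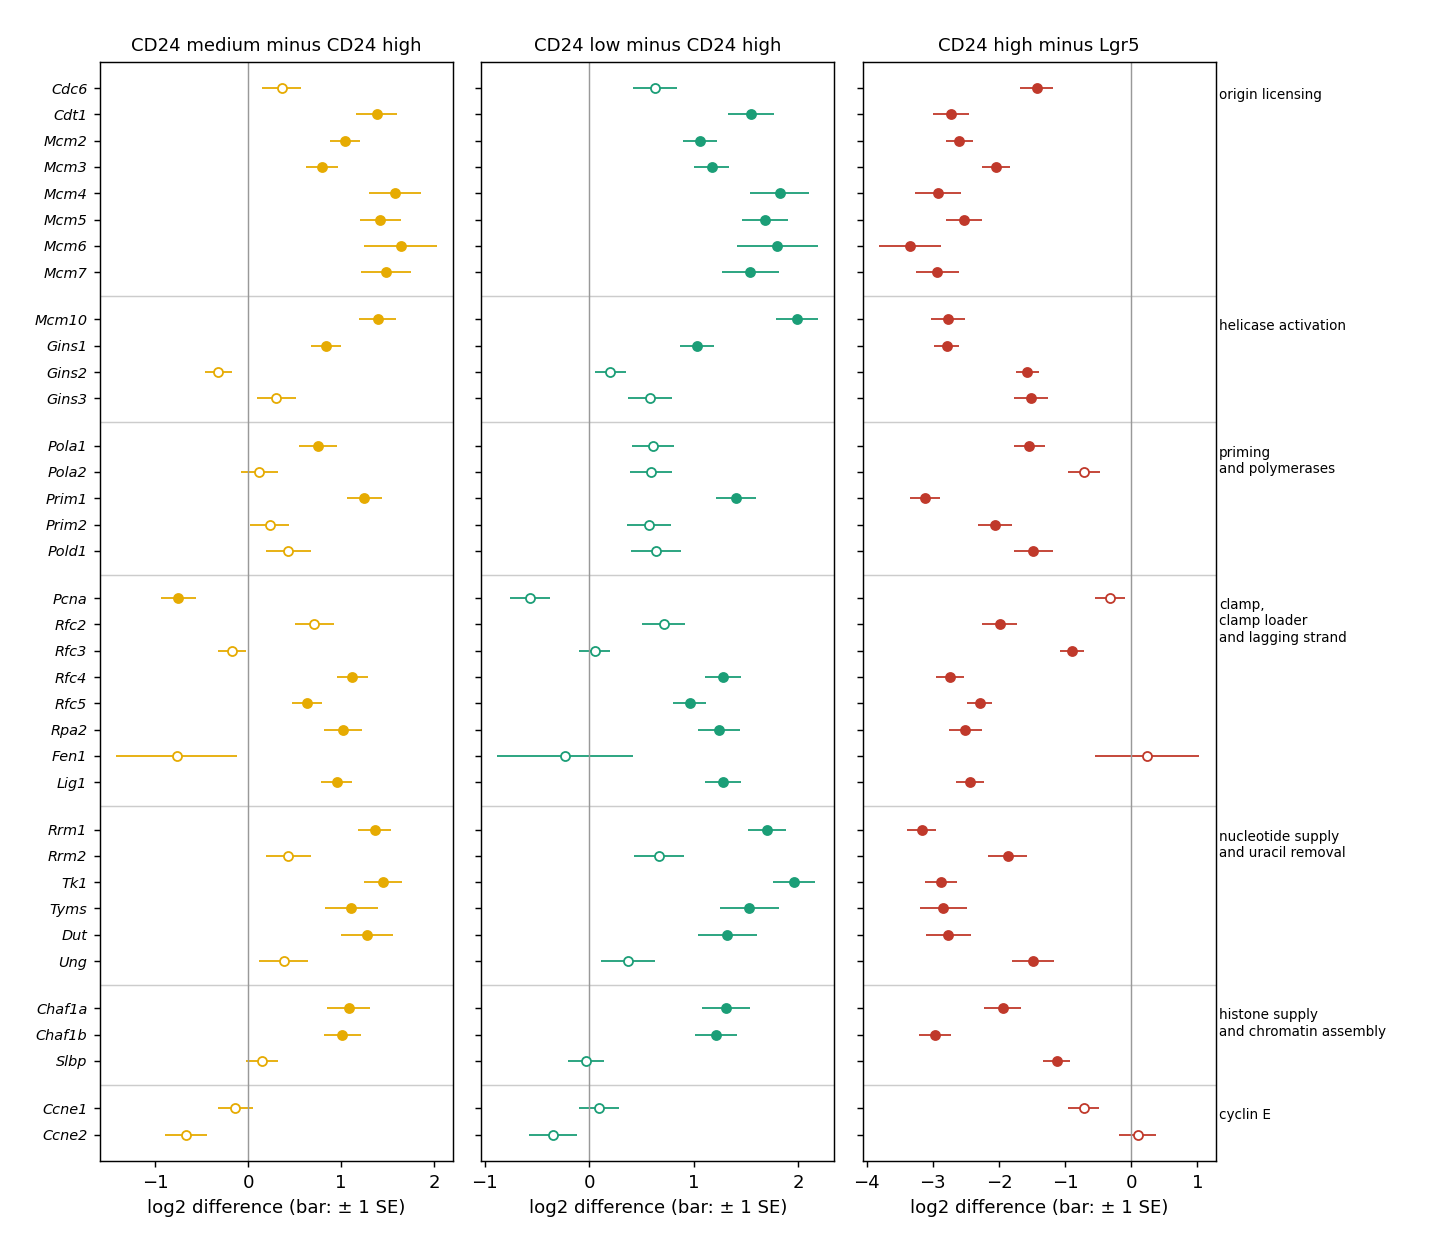
Difference of group means in log2 units for the 36 genes (rows, by role) in CD24 medium minus CD24 high, CD24 low minus CD24 high and CD24 high minus Lgr5 (panels from left to right). Points are limma estimates, bars are 1 SE, and filled points passed an adjusted p of 0.05, with 22, 20 and 31 filled points in the panels.

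CD24 low and CD24 medium were not separated by the test. Of the 36 genes 0 passed as higher and 0 as lower in limma, where 0% and 0.115% of all genes passed. At an unadjusted p under 0.05, Mcm10, Gins2 and Tk1 were higher in CD24 low and 0 were lower, where 5.26% and 5.42% of all genes were, so the count of higher genes is near the background. The median difference was 0.23, or 1.17-fold, and the estimate was positive for 33 genes, beside 55.8% of all genes. Both CD24 low arrays lay above both CD24 medium arrays for 17 genes, against 22.4% of all genes, and the reverse held for 0, against 19%. The median difference was 0.40 without CD24 medium replicate 1 and 0.04 without replicate 2, so it rested on the second of these arrays.

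Pcna went the other way. The clamp, the gene with the brightest probe of the 36, was at −0.03 in Lgr5, −0.88 and −0.96 in CD24 low, −0.97 and −1.24 in CD24 medium, then −0.53 and −0.18 in CD24 high. Both CD24 high arrays were thus above the 4 other Dll1 arrays, which 24.9% of all genes show, and Pcna is the only one of the 36 that does. CD24 medium was lower than CD24 high by 0.75 on the log2 scale (1.68-fold, SE 0.19, adjusted p = 0.037). That call was lost without CD24 medium replicate 1, CD24 medium replicate 2 or CD24 high replicate 2. It was also lost with an offset of 16 (adjusted p = 0.067), with processed signals (0.059), with the Cy3 channel alone (0.12) and with slide as a term (0.052), each time with the same direction. Pcna has 1 probe on this array, printed on 10 spots. That probe and the single probe of Gins2, the other gene to be checked for its CD24 high values, are shown as the array file lists them, since all values of these genes rest on them.
Pcna, chr2:132075420-132075557, minus strand, mm9: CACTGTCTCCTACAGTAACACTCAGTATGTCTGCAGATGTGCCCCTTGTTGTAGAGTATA
Gins2, chr8:123112627-123112686, minus strand, mm9: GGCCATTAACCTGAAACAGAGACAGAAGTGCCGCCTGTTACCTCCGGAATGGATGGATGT

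The 60 letters of the Pcna probe span 138 bases of genome in the array file, against 60 for Gins2. Before any scaling, the median Cy3 intensity of its spots was 14041 in Lgr5, 4667 and 3606 in CD24 low, 4672 and 3601 in CD24 medium, then 2206 and 2572 in CD24 high. The intensity as scanned was thus lowest in CD24 high, while the scaled values put CD24 high above CD24 medium in all 3 scalings tried. Within CD24 high replicate 1, the 10 spots ran from 1171 to 2376, and Agilent's processed log2 ratio ran from −1.09 to −0.18. In CD24 high replicate 2 that ratio ran from −0.45 to 0.12. The CD24 medium spots ran from −1.03 to −0.88 in replicate 1 and from −1.25 to −1.17 in replicate 2. The spots thus spread more widely on both CD24 high arrays. The range of CD24 high replicate 1 took in that of CD24 medium replicate 1, while all spots of CD24 high replicate 2 lay above those of both CD24 medium arrays.

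Gins2, a further GINS subunit, was at 1.71 in Lgr5, 0.27 and 0.42 in CD24 low, −0.17 and −0.19 in CD24 medium, then 0.16 and 0.12 in CD24 high. Both CD24 high arrays lay between CD24 low and CD24 medium, and the difference of −0.32 between CD24 medium and CD24 high did not pass. Against Lgr5 it followed the other genes, 2.96-fold lower in CD24 high (adjusted p = 0.0014) and 3.70-fold lower in CD24 medium (adjusted p = 0.0023). Only 1 probe reports it.

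Fen1, the flap nuclease of lagging strand synthesis, was split by a single spot. It stood at 0.05 on CD24 high replicate 1 and at 2.27 on replicate 2, with 0.92 in Lgr5, 0.68 and 1.19 in CD24 low, and 0.44 and 0.35 in CD24 medium. The Cy3 intensities were 213 and 910 on the CD24 high arrays, while the reference was alike at 2840 and 2670, and neither spot carried an outlier mark. Its standard deviation of 1.57 in CD24 high compares with a median of 0.23 over the 36 genes. Its values in CD24 high therefore give no direction.

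**Figure D3:**
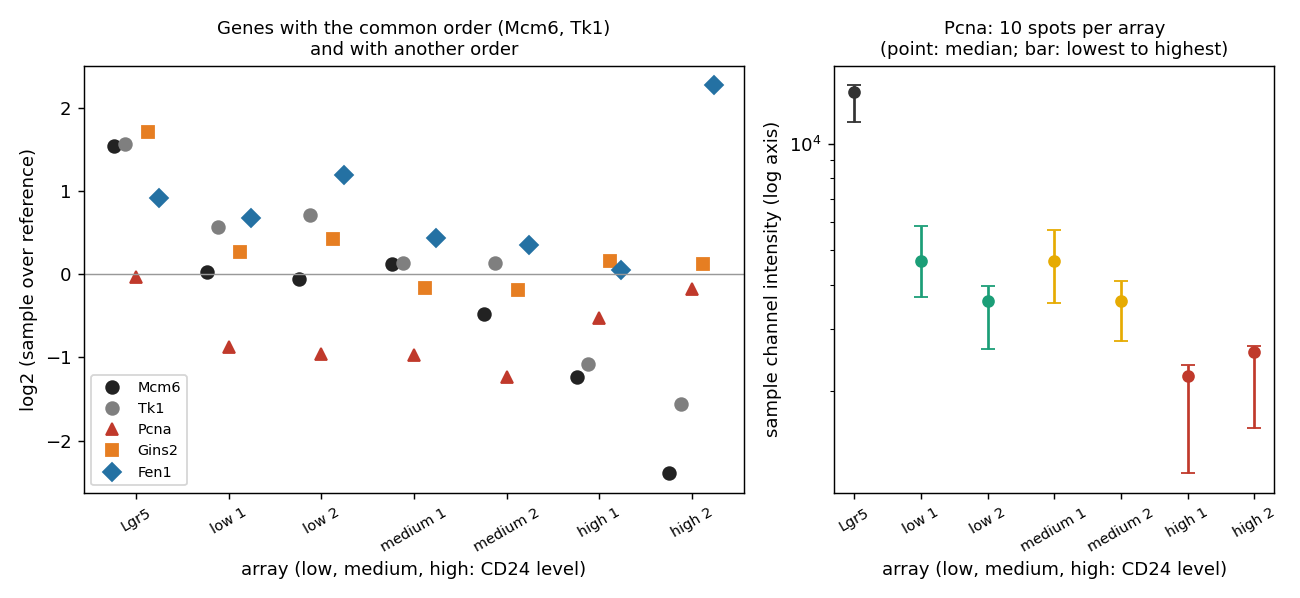
Left, level as log2 of sample over reference on each array for Mcm6 and Tk1, which follow the common order, and for Pcna, Gins2 and Fen1, which do not. Right, Cy3 intensity (log axis) of the 10 Pcna spots of each array, with a point for the median and a bar from the lowest to the highest spot: medians run from 14041 in Lgr5 down to 2206 in CD24 high replicate 1.

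The 36 genes had 50 probes, 45 of them past the filter, and 8 genes had more than 1 such probe. In CD24 medium against CD24 high the probes of 6 of these 8 gave differences of the same sign, and in CD24 high against Lgr5 those of all 8 did. The probes gave 0.71 and 0.80 for Rfc2, 0.74 and 1.02 for Rpa2, 1.13 and 1.28 for Dut, and 0.36 and 0.60 for Cdc6. For Pold1 they lay farther apart, at 0.43 for the probe used and 1.09 for a second of nearly the same mean log2 intensity (11.86 and 11.83). The brightest 2 of 3 Tyms probes gave 1.11 and 1.09, and the third, seen above background on 3 arrays, gave 0.21. For Gins1 the second probe gave −0.24 where the first gave 0.84. That second probe read 0.46 in Lgr5, −0.60 and −0.53 in CD24 low, −1.08 and −0.99 in CD24 medium, then −0.91 and −0.68 in CD24 high, so the Gins1 call rests on 1 of 2 probes and did not pass with their mean (adjusted p = 0.18). For Ccne1 the probes gave −0.14 and 0.21.

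Dim genes showed smaller differences. Over the 36 genes the mean log2 intensity of the probe and its difference between CD24 medium and CD24 high had a Pearson r of 0.43 and a Spearman rho of 0.51, across genes that share the same arrays. With Agilent's processed signals, which add no offset, r was −0.02. Ccne2, Pola2, Gins3, Cdc6, Rrm2 and Rfc3 were the dimmest 6, between 8.15 and 9.48, and 0 of them passed between CD24 levels, although 4 were higher at an unadjusted p under 0.05 in CD24 low against CD24 high, as were 14.9% of all genes. Mcm4 was at 12.97 and Mcm6 at 13.73.

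By the slide barcode of each array, which is not in the labels, the arrays lay on 2 slides, with CD24 low on slide 2 alone and Lgr5 on slide 1 alone. CD24 low and Lgr5 thus share no slide, and a slide effect on their difference can be estimated only through the CD24 medium and CD24 high arrays. Between CD24 medium and CD24 high, the difference was positive on both slides for 29 genes and negative on both for Gins2, Pcna, Rfc3 and Ccne2. It changed sign for Pola2, Fen1 and Ccne1. The median was 0.90 on slide 1 and 0.74 on slide 2. The share of all genes positive on both slides is not given here. Ccne2 was not well above background on either CD24 high array or on CD24 medium replicate 2. With processed signals Rfc3 was instead higher in CD24 medium on both slides (−0.67 against −0.83, then −0.71 against −1.08). On slide 2 alone CD24 medium and CD24 high have 1 array each, and a fit there takes the spread of both from the 2 CD24 low arrays. Calls from that fit are therefore not given. The Fen1 difference of −1.92 on slide 2 rests on the single spot described above. On the same slide CD24 low was above CD24 high for 33 genes, with a median of 1.08. That count rests on 1 CD24 high array, and the share of all genes is again not given.

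**Figure D4:**
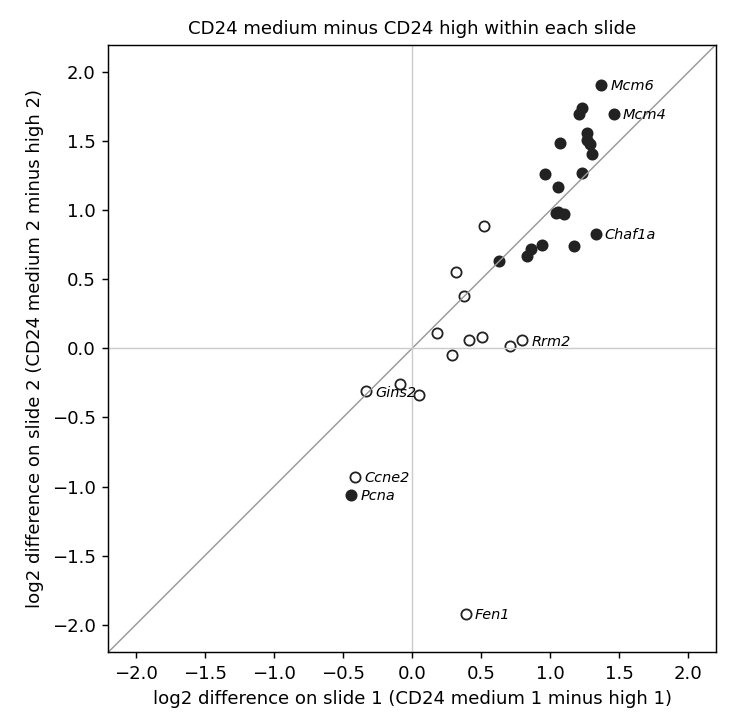
Difference in log2 units between CD24 medium and CD24 high for each of the 36 genes on slide 1 (horizontal axis) and slide 2 (vertical axis), 1 array per group on each slide, with filled points for the 22 genes that passed in the fit to all arrays and a line of equality. Of the genes, 29 lie above 0 on both axes, and Fen1 at 0.39 and −1.92 lies farthest from the line.

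Against the Lgr5 array most replication genes were lower in every CD24 level. CD24 high was lower for 31 of 36 and higher for 0, where 14.7% and 21.3% of all genes were called, with a median of −2.17 (4.51-fold lower). CD24 medium was lower for 28 and higher for 0, against 8.56% and 10.3%, with a median of −1.36. CD24 low was lower for 24 and higher for 0, against 9.82% and 12%, with a median of −1.16. At an unadjusted p under 0.05, 0 genes were higher in any of the 3, against 26.8%, 18.7% and 20.8% of all genes. The comparisons share the 1 Lgr5 array, whose own spread is taken from the Dll1 groups. Medians over all genes were 0.10, 0.09 and 0.11. The Lgr5 array was above all 6 Dll1 arrays for 33 genes, against 25.5% of all genes, and below all 6 for 0, against 34.5%. The exceptions were Pola2, Fen1 and Ccne2.

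The largest falls from Lgr5 to CD24 high were those of Mcm6, 10.2-fold (log2 −3.35 ± 0.47 SE, adjusted p = 0.0028), Rrm1, 8.99-fold (−3.17 ± 0.22, adjusted p = 0.00026), Prim1, 8.70-fold (−3.12 ± 0.23, adjusted p = 0.00033), and Chaf1b, 7.85-fold (−2.97 ± 0.24, adjusted p = 0.00042). In CD24 medium and CD24 low the leading genes were Chaf1b, 3.90-fold and 3.38-fold lower (adjusted p = 0.0044 and 0.0059), and Gins1, 3.85-fold and 3.39-fold lower (adjusted p = 0.0024 and 0.0030). The place of Gins1 rests on its brightest probe: its log2 differences were −1.94 and −1.76, while the second probe gave −1.49 and −1.03. In all, 22 genes were lower than Lgr5 in each of the 3 levels, in comparisons that share the same Lgr5 array. What share of all genes was lower in all 3 is not given here, so this count has no background. Pcna was lower in CD24 medium (2.10-fold, adjusted p = 0.024) and CD24 low (1.85-fold, adjusted p = 0.039), and not called in CD24 high.

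All 31 falls in CD24 high passed with each of the 6 Dll1 arrays left out in turn. The single Lgr5 array, on which every fall rests, could not be left out. Of the falls, 10 of 28 in CD24 medium and 11 of 24 in CD24 low did so. The CD24 medium count was 10 without CD24 medium replicate 2, and the CD24 low count was 12 without CD24 low replicate 2. With slide as a term the CD24 low count was 9, and with Agilent's processed signals the counts were 15 and 13.

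Other genes of the cell cycle, from lists drawn up for this tissue, moved in part with the 36. Of 52 other replication genes tested, 10 were higher and 4 lower in CD24 medium against CD24 high, 19 were higher and 2 lower in CD24 low, and 38 were lower and 1 higher in CD24 high than in Lgr5. The shares of all genes, in the same order, were 7.6% and 13.4%, 6.87% and 11.3%, and 14.7% and 21.3%. The median of these 52 genes was 0.35 in CD24 medium against CD24 high. Uhrf1, which brings the maintenance methylase to new DNA, rose 3.26-fold (adjusted p = 0.011). The Pcna-binding factor listed as 2810417H13Rik rose 2.73-fold (adjusted p = 0.0091), and Rpa3, a partner of Rpa2, 2.41-fold (adjusted p = 0.0051). Rfc1, the large clamp loader subunit, fell 2.61-fold in CD24 medium (adjusted p = 0.0080), with 2.35 and 2.28 in CD24 high and 0.44 in Lgr5, opposite to Rfc4 and Rfc5 and from 1 probe.

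Of 20 genes of E2F and CDK control, 3 were higher and 1 lower in CD24 medium against CD24 high, with a median of 0.07. Of all genes 7.6% and 13.4% were. E2f2, an activating E2F, rose 4.42-fold (adjusted p = 0.0027), Cdkn1c, a CDK inhibitor, 3.71-fold (adjusted p = 0.036), and Ccna2, cyclin A2 of S phase and G2, 2.38-fold (adjusted p = 0.0033). E2f2 was also above Lgr5 in CD24 medium (2.62-fold, adjusted p = 0.023) and CD24 low (3.56-fold, adjusted p = 0.0095), where 0 of the 36 were. Skp2, a ubiquitin ligase subunit, was 14.5-fold lower in CD24 medium (adjusted p = 2e-04), where its second probe gave a difference of only −0.28.

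Of the 26 genes of G2 and mitosis, 14 were higher and 0 lower in CD24 medium against CD24 high, and 21 were higher and 0 lower in CD24 low. All-gene shares were 7.6% and 13.4%, then 6.87% and 11.3%. The median level of the 26 genes was 0.61 in Lgr5, 0.21 and 0.22 in CD24 low, −0.43 and −0.47 in CD24 medium, then −1.31 and −1.22 in CD24 high. The median difference between CD24 low and CD24 medium was 0.67 here and 0.23 for the replication genes, with 0 genes called in either list, and this contrast was not tested. Cdc20, the activator of the anaphase ubiquitin ligase, Birc5, a chromosomal passenger, Cenpe, a kinetochore motor, and Mki67, the Ki-67 antigen, were 4.91-fold, 4.34-fold, 4.12-fold and 4.12-fold above CD24 high in CD24 medium. The value of Cenpe rests on 1 probe: its log2 difference was 2.04, while a second probe past the filter gave 0.01. The second probe of Mki67 gave 1.33 where the first gave 2.04. Against Lgr5, 23 of the 26 were lower in CD24 high and 8 in CD24 low, where 14.7% and 9.82% of all genes were.

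Markers of cell types moved with the same groups. The median level of 6 Paneth markers measured was 4.72 and 5.38 on the CD24 high arrays, −0.53 and −0.12 on the CD24 medium arrays, −2.76 and −3.04 on the CD24 low arrays and −3.27 on the Lgr5 array, and all 6 were lower in CD24 medium and in CD24 low than in CD24 high. That of 10 enteroendocrine markers was 3.04 and 4.78 for CD24 medium, 1.07 and 3.06 for CD24 low, −0.29 and −0.12 for CD24 high and −0.27 for Lgr5. Goblet markers, 7 in all, had medians of 1.87 to 3.79 on the Dll1 arrays and −3.33 in Lgr5. The 8 stem cell markers had 1.46 in Lgr5, 0.47 and 0.16 in CD24 high and −1.07 to −0.76 in the others. Of 10 immune markers tested, 6 were higher and 1 lower in CD24 high than in Lgr5 and 4 were lower in CD24 medium than in CD24 high, with medians of −0.80 and −0.57 on the CD24 high arrays and −1.78 to −1.27 on the others. Of 8 markers of mesenchyme and endothelium, 6 were higher in CD24 high than in Lgr5, and in CD24 medium 4 were lower and 1 higher than in CD24 high. Their medians were −2.67 and −2.45 in CD24 high, −4.03 in Lgr5 and −3.31 to −2.77 on the other arrays. Of 7 tuft and 9 enterocyte markers, 2 of each list were lower in CD24 medium than in CD24 high, and 1 enterocyte marker was higher. Of all genes, 13.4% were lower and 7.6% higher in that comparison. In CD24 high against Lgr5, 21.3% were higher and 14.7% lower. All 7 epithelial markers were well above background on every array, as were the 6 Paneth markers, Lgr5 included. The share of gene spots above background was also lower in CD24 high, at 44.4% and 42.5%, than on the other arrays, at 52.8% to 60.5%. The part of these values in the grading of the replication genes was not tested.

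**Figure D5:**
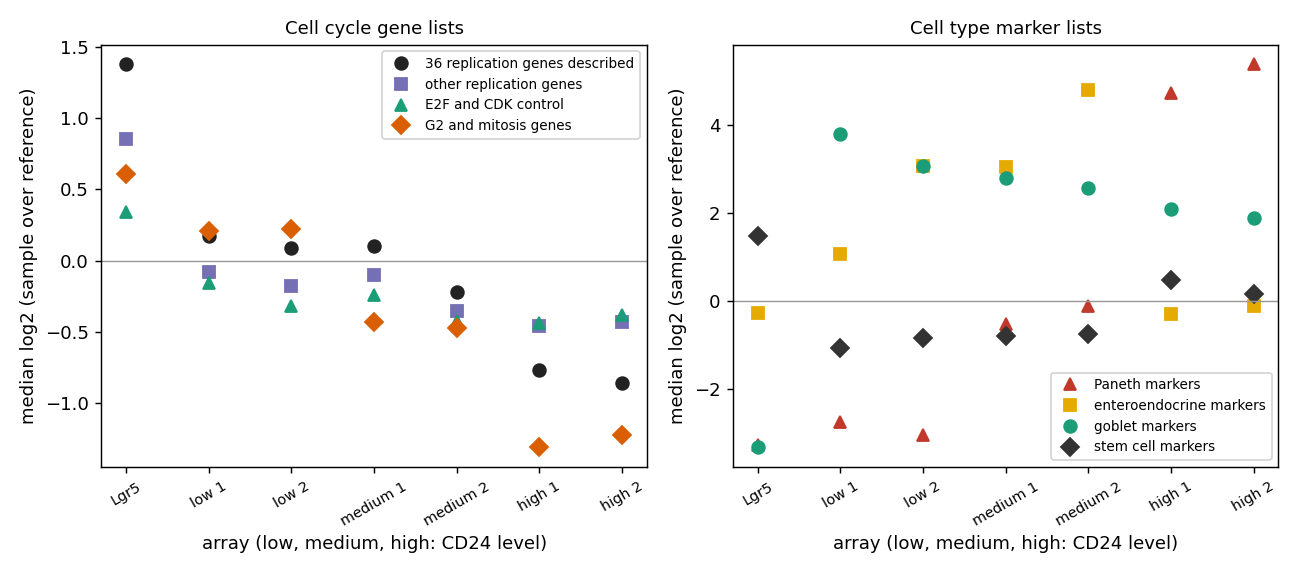
Median level as log2 of sample over reference on each array (horizontal axis) for 4 lists of cell cycle genes (left) and 4 lists of cell type markers (right), 1 mark per list and array. The replication genes fall from 1.38 in Lgr5 to −0.77 and −0.86 in CD24 high, and the Paneth markers rise from −3.27 to 4.72 and 5.38.

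All-gene counts, which set the background above, depended on scaling. In CD24 medium against CD24 high 1322 genes were higher and 2338 lower in the ratios used here, but 2969 and 2201 with Agilent's processed signals and 2225 and 1881 with the quantile-scaled Cy3 channel alone. CD24 low against CD24 high had 1196 higher and 1959 lower, beside 3280 and 2355, and 2310 and 2106. CD24 high against Lgr5 had 3695 higher and 2548 lower, beside 3202 and 3987, and 2580 and 3638. With the Cy3 channel alone, CD24 medium and CD24 low against Lgr5 turned from 1790 higher and 1485 lower to 1247 and 1658, and from 2084 and 1703 to 1398 and 2163. Processed signals moved the all-gene median by 0.21, 0.23 and −0.15 in the first 3 of these comparisons. By the sign of the estimate, called or not, 30 of the 36 genes and 50.5% of all genes were higher in CD24 medium against CD24 high in the ratios used here. With processed signals these were 32 and 60%, and with the Cy3 channel alone 32 and 58.8%.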

How the data were processed

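RNA of GFP-high cells sorted from the mouse intestine was measured on 7 dual-colour Agilent arrays. Per the file headers, the deposited files give spot intensity of both channels from Agilent Feature Extraction 10.5.1.1, a log10 ratio of Cy5 over Cy3, and probe positions on mm9. The deposited series matrix is the same log10 ratio turned to sample over reference, with column medians of 0 and −0.003049. Median Cy3 intensities of gene spots were 77.6 to 107.5, with 0 saturated spots, and the number of arrays limits the precision.

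Mean signals were background corrected (normexp, offset 50) and log2 ratios normalised by loess (span 0.3) within arrays using R 4.3.3, limma 3.58.1, data.table (1.17.8), Python 3.11.15 and matplotlib 3.10.9. Per the labels, the sorted RNA was in Cy3 and the reference in Cy5 on all 7 arrays, so a level against the reference is open to dye bias. The offset understates differences of dim genes. The filter kept 24509 probes, those that cleared background in Cy3 on 2 or more of the 7 arrays, and each gene name took its brightest probe. In 34 of 36 genes that probe's accession belongs to the gene in RefSeq. lmFit and eBayes gave 1 mean per group, with 3 residual degrees of freedom, and Benjamini-Hochberg adjustment ran over all genes tested. Replicate arrays correlated at 0.90 to 0.94. The fit was tested on simulated data. The members, lists and rules were chosen with earlier results of these data known. Values of single arrays are given for genes named, a difference with its adjusted p for those past the threshold, at most 4 genes of each other list, and probes singly for Pcna, Gins2 and genes whose probes differ in sign. The 2 counts of genes in the order of all 4 groups, Fen1 and other single values were picked after being seen. Alternatives were other background corrections, offset, scaling, filter, probe rule, slide, replicate block and leaving out each array.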

Additional observations from a re-analysis of the deposited data

How the results depend on the processing

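No called difference and no median difference of the members changed sign under the alternatives run. The median difference between CD24 medium and CD24 high was 0.97 with no background subtraction, 1.46 with processed signals and with the series matrix, 0.96 with an offset of 16, 1.05 with the Cy3 channel alone and 0.98 with a filter on all 7 arrays. That between CD24 low and CD24 high was 1.74 with processed signals and the series matrix and 1.19 with the filter on all 7 arrays. CD24 high against Lgr5 gave −3.07 with processed signals and the series matrix, −2.44 with the Cy3 channel alone and −2.47 with that filter. CD24 medium against Lgr5 gave −1.54 with processed signals and the series matrix, −1.20 within slide 1 and −1.19 with slide as a term. CD24 low against Lgr5 gave −0.88 with slide as a term, and CD24 low against CD24 medium 0.40 on slide 2 alone. Calls moved to 15 and 13 (CD24 medium and CD24 low against Lgr5) with processed signals or the series matrix, and to 9 (CD24 low against Lgr5) when slide entered the model. Both CD24 high arrays lay above the 4 other Dll1 arrays for 2 genes with no background subtraction, and CD24 medium above CD24 low for 1 with processed signals or the series matrix and 2 with the Cy3 channel. The cause of these moves was not tested. The 31 calls of CD24 high against Lgr5 all kept their side of the threshold under the changes of background, offset, scaling, probe rule and slide.

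Leaving out each array in turn, calls ran from 4 to 22 in CD24 medium against CD24 high, from 10 to 29 in CD24 medium against Lgr5 and from 12 to 24 in CD24 low against Lgr5. Median differences ran from 0.04 to 0.40 in CD24 low against CD24 medium and from −1.50 to −1.20 in CD24 medium against Lgr5. Deviations of samples with the same replicate number correlated at 0.30, 0.00 and 0.48 over the 3 pairs of CD24 levels. These values do not settle whether equal numbers belong together, since for CD24 high and CD24 medium the number also follows the slide. The main fit did not take the numbers as pairs. With the replicate block, calls were 23, 21, 0, 32, 28 and 22 in the 6 comparisons, in the order CD24 medium and low against high, low against medium, and high, medium and low against Lgr5.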
